A study of Mus musculus with 8 samples.

Results

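The genes described here are 10 components of the epithelial tight junction: the claudins Cldn2, Cldn3, Cldn4, Cldn7, Cldn12, Cldn15 and Cldn23, occludin (Ocln), junctional adhesion molecule A (F11r) and the scaffold ZO-1 (Tjp1). They were chosen by name, as the rows of a raw count table whose gene identifiers carry these symbols, and make up 10 of its 53801 genes. RNA came from Paneth cells of the mouse small intestine, sorted in bulk as viable EpCAM+ Cd24+ cells after additional staining for CD45. The 4 controls were β-cat GOF; Mll1+/- mice and the 4 knockouts were β-cat GOF; Mll1-/- mice, a few weeks old at induction and taken 10 d after tamoxifen, given at 1 mg on 3 days. All 8 mice carried the stabilised β-catenin allele (β-cat GOF, deletion of exon 3) and the Lgr5-EGFP-IRES-CreERT2 driver, and all carried at least 1 conditional copy of Mll1 (gene symbol Kmt2a), which encodes a histone H3K4 methyltransferase. Cre acts only in Lgr5+ stem cells, so a sorted Paneth cell carries the mutations only if it arose from a recombined stem cell. The study's methods describe the sort in Lgr5-EGFP-IRES-CreERT2; Mll1 flox mice without naming β-cat GOF, and the genotypes above are those of the series' design.

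Tight junctions seal the space between neighbouring epithelial cells near their apical end. Claudins are tetraspan proteins whose extracellular loops meet those of the next cell. Some of them form pores for small cations and water, while others tighten the seal, so the mixture of claudins sets what leaks between cells. Cldn2 is typical of the crypt and falls towards the villus, Cldn15 supplies the sodium that luminal nutrient uptake needs, and Cldn3, Cldn4 and Cldn7 are usually counted as sealing claudins. Occludin and JAM-A are further membrane proteins of the junction, and ZO-1 binds the tails of claudins, occludin and JAM-A and ties them to actin.

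Promoter sequences (the 250 bases before the transcription start, RefSeq, GRCm38.p6) were available for 9 of the 10 genes, with 13 starts in all. Cldn23 had no entry. Those of Cldn3 and Cldn4 are shown because these genes lie next to each other on chromosome 5, 39.3 kb apart, and are among the pairs of members whose within-library ratio did not overlap between the groups. That of Cldn2 is shown because it is the only member promoter with a TATA box. Each reads 5′ to 3′ on the gene's strand, and capitals mark matches to the motifs named after it.
Cldn3 (chr5:134985964-134986213, + strand): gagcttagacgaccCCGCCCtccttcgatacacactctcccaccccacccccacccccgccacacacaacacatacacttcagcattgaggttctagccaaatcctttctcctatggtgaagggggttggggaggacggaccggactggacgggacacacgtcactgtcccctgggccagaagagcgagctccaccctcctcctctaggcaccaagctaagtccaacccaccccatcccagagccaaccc
Cldn4 (chr5:134946935-134947184, - strand): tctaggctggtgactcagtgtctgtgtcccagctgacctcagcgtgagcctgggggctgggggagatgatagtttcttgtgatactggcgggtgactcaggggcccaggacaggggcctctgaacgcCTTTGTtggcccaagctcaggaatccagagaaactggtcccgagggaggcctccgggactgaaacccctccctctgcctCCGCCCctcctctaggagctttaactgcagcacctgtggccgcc
Cldn2 (chrX:139800558-139800807, + strand): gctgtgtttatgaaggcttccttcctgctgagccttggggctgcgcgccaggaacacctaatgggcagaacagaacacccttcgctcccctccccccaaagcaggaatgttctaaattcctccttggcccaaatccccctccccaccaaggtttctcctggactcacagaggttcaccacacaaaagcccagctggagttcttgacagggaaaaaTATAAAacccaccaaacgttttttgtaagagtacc
The GC box GGGCGG, searched on both strands, was found at 10 of the 13 member starts (8 genes) and in 32.7% of all 32851 promoters. The Cldn12 matches, at -73 and -13 from their starts, are the same site in overlapping windows. In Cldn3 the GC box begins at -236 and in Cldn4 at -44 from the start, and both lie on the reverse strand. The TATA box letters TATAAA, present in 12.4% of all promoters, begin at -35 in Cldn2. Of the Tcf/Lef core letters, CTTTGA (13.8% of all promoters) was found in no member promoter, and CTTTGT (16.5%), a spelling added after the sequences were seen, begins at -123 in Cldn4 and was found in no other member. The Grainyhead-like letters AACCNGTT (1.79%) were found in none. These are letter matches and were not measured as binding.

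Total counts were 13557350 to 14380240 in the controls and 13037832 to 13554171 in the knockouts, and the 10 genes together held 2465 to 4057 counts per library. Levels are CPM (counts divided by library size) scaled by TMM factors, which ran from 0.632 in knockout 3 to 1.34 in knockout 2. Knockout 3 stood apart, with a count in 19662 genes against 22623 to 26074 in the other 7 libraries, so values without it are also given for results that rest on it. Controls 1 and 2 and knockouts 1 and 2 carry consecutive library numbers in the labels (called library set 1 here), and the other 4 libraries carry a later consecutive block (set 2). The labels do not say what the numbers stand for. Kmt2a itself had 45.1, 37.2, 24.1 and 22.4 CPM in the controls and 31.1, 25.7, 38.5 and 28.4 CPM in the knockouts (log2 fold change -0.06, SE 0.24, edgeR adjusted p = 0.995). These counts cover all exons of the gene and hence do not test the deletion, so the genotypes are taken from the labels. The study also stained crypts for Mll1 protein, which was not analysed here.

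The sorted cells carried the Paneth markers at very high levels: the 10 of the list summed to 275115 to 546273 CPM in the controls and 259985 to 772799 CPM in the knockouts, with knockout 3 highest. Epcam, a gate gene, is itself a binding partner of Cldn7. It was at 269 to 295 CPM in the controls and 210 to 300 CPM in the knockouts. Cd24a, the other gate gene, was at 1055 to 1365 CPM in the controls and 804 to 1287 CPM in the knockouts. Of the other defining markers, the stromal list summed to 0.395 to 0.94 CPM in the controls and 0.587 to 1.4 in the knockouts. The immune list summed to 144 to 471 and 172 to 626 CPM. Most of it was Lyz2 (129 to 466 and 166 to 624 CPM), and the pan-leukocyte gene Ptprc lay between 1.29 and 12.6 CPM. Enteroendocrine markers summed to 215 to 818 CPM in the controls and 45.3 to 215 CPM in the knockouts (6 of 8 lower at an unadjusted edgeR p under 0.05), and enterocyte markers to 176 to 371 and 87.4 to 264 CPM (4 of the 7 tested lower). Goblet markers summed to 9263 to 17746 CPM in the controls and 7871 to 18981 CPM in the knockouts, with knockout 3 highest and 2 of 8 lower at that p (Fcgbp, log2 fold change -2.24, and Zg16, -5.05). The median log2 fold change of the goblet list was 0.03, and Muc2, the main secreted mucin, stood at 0.19. Stem cell markers summed to 703 to 1520 CPM and 273 to 952 CPM, with 3 of 6 lower and 1 higher at that p, and tuft markers to 202 to 466 and 83.8 to 301 CPM. No marker list had a gene at 0 in all libraries. Enteroendocrine, enterocyte, goblet, tuft and stem cells are epithelial and have tight junctions of their own. The part of these differences in the values below was not tested, and in bulk RNA fewer cells of a type and less RNA per cell cannot be told apart.

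All 10 genes were expressed and all passed the filter on low counts. Compared per kb of exon, the mean over the 8 libraries was highest for Cldn3 (30.1 CPM per kb ± 10.8, SD, n = 8), followed by Cldn7 (25.9 ± 8.06) and Cldn15 (18.4 ± 6.75). Cldn2 (10.2 ± 3.12), F11r (8.52 ± 1.43), Cldn4 (6.09 ± 3.95) and Ocln (5.17 ± 1.19) formed a middle range. Cldn23 (1.89 ± 0.586), Cldn12 (1.76 ± 0.523) and Tjp1 (1.55 ± 0.361) were lowest. Only at the step from Ocln to Cldn23 did the ranges of neighbours in this order not overlap. Cldn3 exceeded Cldn7 and Cldn7 exceeded Cldn15 in 5 of 8 libraries each (2 controls and 3 knockouts), so these neighbours cannot be ordered. Other steps differed by group: Cldn4 exceeded Ocln, and Cldn23 exceeded Cldn12, in 4 of 4 knockouts but 1 of 4 controls, and Cldn2 exceeded F11r in 3 of 4 controls but 1 of 4 knockouts. F11r exceeded Cldn4 and Cldn12 exceeded Tjp1 in 7 of 8, and Cldn15 exceeded Cldn2 in 8 of 8. The 7 claudins held 96.2% to 98.9% of all claudin counts in each library.

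**Figure D1:**
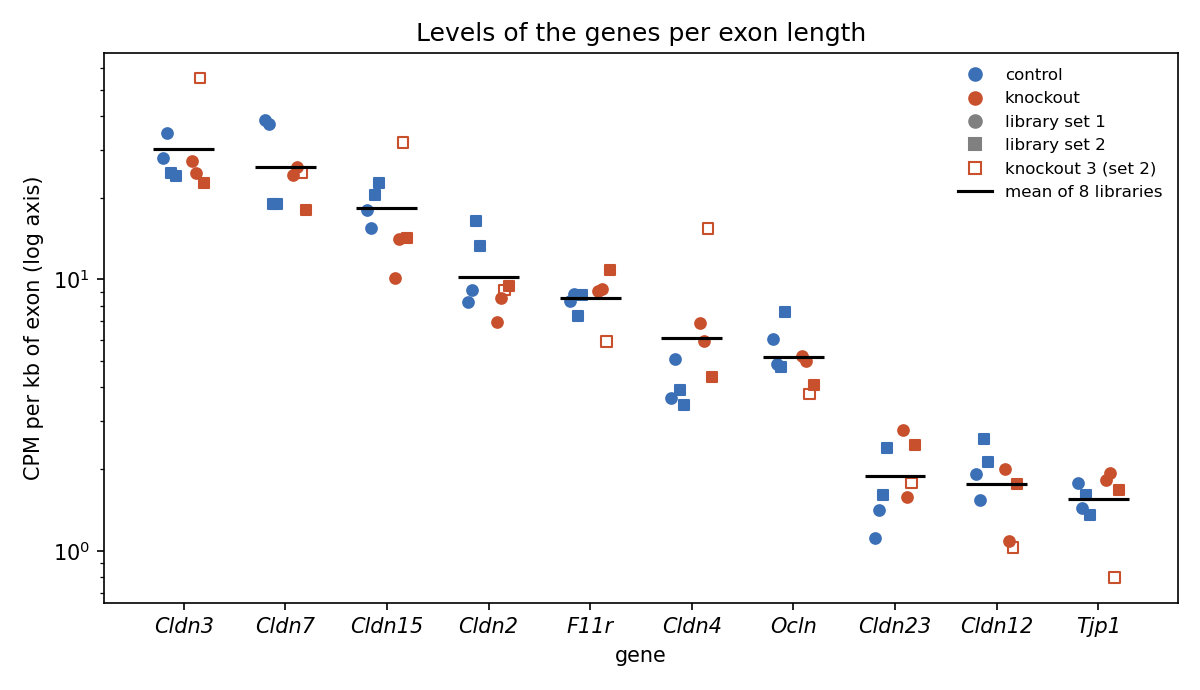
TMM-normalized CPM per kb of exon (log axis) of the 10 genes in each of the 8 libraries, ordered by mean (black line); blue points are controls, red points knockouts, circles library set 1, squares set 2 and the open square knockout 3. The gap between Ocln and the 3 lowest genes is the only step at which neighbouring ranges separate, and knockout 3 is the highest point of Cldn3, Cldn4 and Cldn15 and the lowest of Tjp1.

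The comparison of knockouts with controls asks what the loss of the second Mll1 copy does to transcripts of Paneth cells under activated β-catenin. None of the 10 genes was called by edgeR's quasi-likelihood test (adjusted p not above 0.05, log2 fold change 0.5 or more up or down), whereas 0.186% of the 13439 tested genes were. None passed with DESeq2 or limma-voom either, which called 1.03% and 0.752% of the tested genes. At an unadjusted edgeR p under 0.05 there was 1 gene, Cldn4, where 6.88% of all tested genes reached that level. Without knockout 3 there was again 1 gene, but it was Cldn15 (edgeR adjusted p = 0.225) and no longer Cldn4 (edgeR adjusted p = 0.446), and 11.3% of all genes tested in that fit reached the level. No gene had knockouts and controls that did not overlap, against 4.52% of all genes. Log2 fold changes were above 0 in 5 genes and below 0 in the other 5, with a median of -0.05 where the median of all tested genes was 0.01. Without knockout 3, 6 of the 10 were below 0 and the median was -0.23, where that of all tested genes was -0.01. The median size of the change, 0.325 on the log2 scale, was above the 0.248 of all genes, and the biological coefficient of variation was lower, with a median of 0.289 against 0.347.

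**Figure D2:**
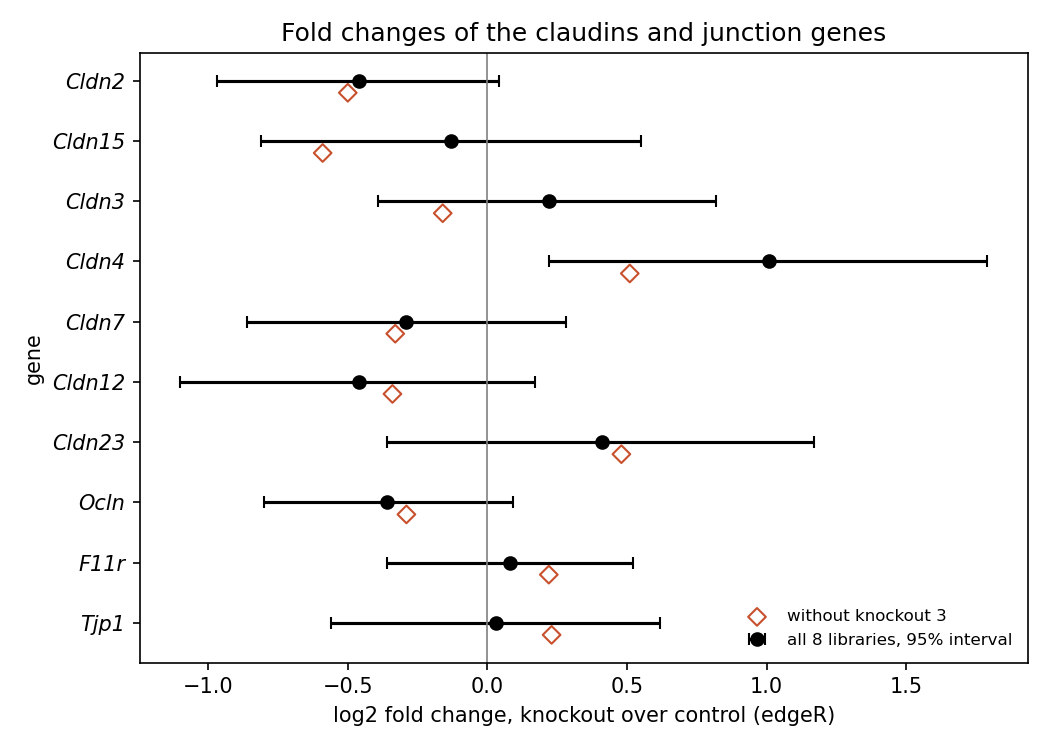
Log2 fold change of knockouts over controls from edgeR for each gene, with its 95% interval over 8 libraries (black) and the value without knockout 3 (open diamonds). The interval of Cldn4, from 0.22 to 1.79, is the only one of the 10 that leaves out 0, and without knockout 3 the value of Cldn3 turns from 0.22 to -0.16.

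Among the pore-forming claudins, Cldn2, which forms a cation and water pore, measured 27.4, 30.4, 54.7 and 44.0 CPM in the controls and 23.1, 28.5, 30.4 and 31.4 CPM in the knockouts. The knockouts were tight and lay at the low end of the controls, and both high controls came from library set 2. The log2 fold change was -0.46 (SE 0.23, 95% interval -0.97 to 0.04, edgeR adjusted p = 0.774), and it was -0.26 without control 3. Within set 1 the means were 28.9 CPM in the controls and 25.8 CPM in the knockouts, and within set 2 they were 49.4 and 30.9 CPM. With library set as a block the unadjusted p of Cldn2 moved under 0.05 but the edgeR adjusted p stayed at 0.557.

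Cldn15, the sodium pore of the small intestine, measured 38.2, 32.8, 43.5 and 48.1 CPM in the controls and 21.5, 29.9, 67.8 and 30.1 CPM in the knockouts. Knockouts 1, 2 and 4 lay below every control and knockout 3 lay above every control. Over all 8 libraries the log2 fold change was -0.13 (SE 0.31, edgeR adjusted p = 0.985), and without knockout 3 it was -0.59 (edgeR adjusted p = 0.225). The mean of the other 3 knockouts was 27.2 CPM ± 4.91 (SD, n = 3) against 40.7 CPM ± 6.61 (SD, n = 4) in the controls. The fold change from limma-voom with quality weights, which give a deviating library less weight, was -0.59 with an adjusted p of 0.254. In edgeR the log2 fold change was 0.06 without knockout 1. It was -0.04 without knockout 2, knockout 4 or control 4, so no direction can be given.

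Of the sealing claudins, Cldn3 measured 35.2, 43.5, 31.1 and 30.2 CPM in the controls and 34.3, 31.0, 69.5 and 28.6 CPM in the knockouts. Outside knockout 3 the groups overlapped, with controls 1 and 2 above the other 3 knockouts. Within library set 1 both knockouts lay below both controls (means 32.7 and 39.3 CPM). The log2 fold change of 0.22 (SE 0.28, 95% interval -0.39 to 0.82, edgeR adjusted p = 0.963) turned to -0.16 without knockout 3 and to -0.05 with limma-voom, so no direction can be given. Of the exon bases of Cldn3, 3.2% are shared with the gene Wbscr25, and none of the other 9 genes shares any with another gene.

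Cldn4 had the largest log2 fold change of the 10 genes over all 8 libraries, whereas without knockout 3 that of Cldn15 was larger in size. Cldn4, also a sealing claudin, measured 6.64, 9.28, 7.09 and 6.24 CPM in the controls (79 to 117 counts) and 12.6, 10.8, 28.0 and 7.95 CPM in the knockouts (131 to 238 counts). Knockouts 1, 2 and 3 lay above every control and knockout 4 lay inside the control range, below control 2. The mean rose from 7.31 CPM ± 1.36 (SD, n = 4) to 14.8 CPM ± 8.96 (SD, n = 4), a fold of 2.01 with a 95% interval of 1.16 to 3.47. The log2 fold change was 1.01 (SE 0.36, edgeR adjusted p = 0.553), and the two-sided exact permutation test on log2(CPM + 1) gave p = 0.0571, with 0.0286 the smallest value that 4 against 4 can give. With limma-voom it was 0.64 (adjusted p = 0.298), and without knockout 3 it was 0.51 (edgeR adjusted p = 0.446), with a knockout mean of 10.4 CPM ± 2.34 (SD, n = 3).

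The overlap of Cldn4 between the groups lay between control 2 of set 1 (9.28 CPM) and knockout 4 of set 2 (7.95 CPM). In set 1 both knockouts exceeded both controls (means 11.7 and 7.96 CPM, log2 difference 0.55). In set 2 they did as well (18.0 and 6.66 CPM, 1.43). The set 2 mean of the knockouts joins 28.0 CPM in knockout 3 and 7.95 CPM in knockout 4. The latter is close to the 7.09 CPM of control 3, so the size of the difference in set 2 rests on knockout 3. Of the 10 genes, Cldn4 alone kept its groups apart in the same direction in both sets, and 8.88% of all tested genes did so. With library set as a block the unadjusted edgeR p was 0.0229, against 0.0166 without it, and the edgeR adjusted p was 0.513. When genes with low counts were kept in the fit, that of Cldn4 fell to 0.0486, the only setting in which a member was called.

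Cldn7, a sealing claudin of the basolateral membrane that binds EpCAM, measured 75.2, 72.8, 36.9 and 37.0 CPM in the controls and 47.3, 50.5, 48.3 and 35.2 CPM in the knockouts. The controls split cleanly by library set, with set 1 near 74.0 CPM and set 2 near 37.0 CPM, while the knockouts lay between or just under these levels. The log2 fold change was -0.29 (SE 0.26, 95% interval -0.86 to 0.28, edgeR adjusted p = 0.919). It was -0.11 without control 1, -0.14 without control 2, -0.45 without control 3 or control 4, -0.19 without knockout 4 and -0.10 with limma-voom. Within set 1 the log2 difference of the means was -0.6, and within set 2 it was 0.18, so the sets differ in sign.

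Of the other claudins, Cldn12, which has been linked to calcium passage, measured 8.15, 6.51, 10.9 and 9.0 CPM in the controls and 8.49, 4.59, 4.35 and 7.46 CPM in the knockouts. Knockouts 2 and 3 lay below every control. Its log2 fold change was -0.46 (SE 0.29, 95% interval -1.1 to 0.17, edgeR adjusted p = 0.864). Cldn23, a claudin of differentiated surface epithelium, measured 2.07, 2.62, 2.96 and 4.42 CPM in the controls and 5.17, 2.93, 3.29 and 4.55 CPM in the knockouts, where knockouts 1 and 4 lay above every control. Its log2 fold change was 0.41 (SE 0.35, 95% interval -0.36 to 1.17, edgeR adjusted p = 0.916) and ran from 0.26 without knockout 1 to 0.65 without control 4, from 28 to 87 counts per library, the fewest of the 10 genes.

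Occludin, a MARVEL-domain protein of the junction strand, measured 25.4, 20.6, 20.1 and 32.0 CPM in the controls and 22.0, 21.2, 16.0 and 17.2 CPM in the knockouts. Knockouts 3 and 4 lay below every control and knockouts 1 and 2 inside their range. The log2 fold change was -0.36 (SE 0.2, 95% interval -0.8 to 0.09, edgeR adjusted p = 0.834), and it stayed between -0.44 and -0.21 when each library was left out in turn.

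F11r, the immunoglobulin-like adhesion molecule JAM-A, was the steadiest gene in the controls with 22.1, 23.5, 19.5 and 23.3 CPM (a coefficient of variation of 8.35%). The knockouts measured 24.1, 24.5, 15.7 and 28.8 CPM, with knockout 3 below every control and the other 3 above all of them. The log2 fold change was 0.08 (SE 0.2, 95% interval -0.36 to 0.52, edgeR adjusted p = 0.987) and 0.22 without knockout 3 (edgeR adjusted p = 0.649), but -0.04 without knockout 4. Tjp1, the ZO-1 scaffold, measured 13.9, 11.2, 12.5 and 10.6 CPM in the controls and 14.3, 15.1, 6.23 and 13.1 CPM in the knockouts, where knockout 3 was again the lowest. Its log2 fold change was 0.03 (SE 0.27, 95% interval -0.56 to 0.62, edgeR adjusted p = 0.997), an interval that runs from 0.678 to 1.53 times the control level. It was 0.23 without knockout 3 and turned negative in 6 of 19 alternative settings, so no direction can be given.

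**Figure D3:**
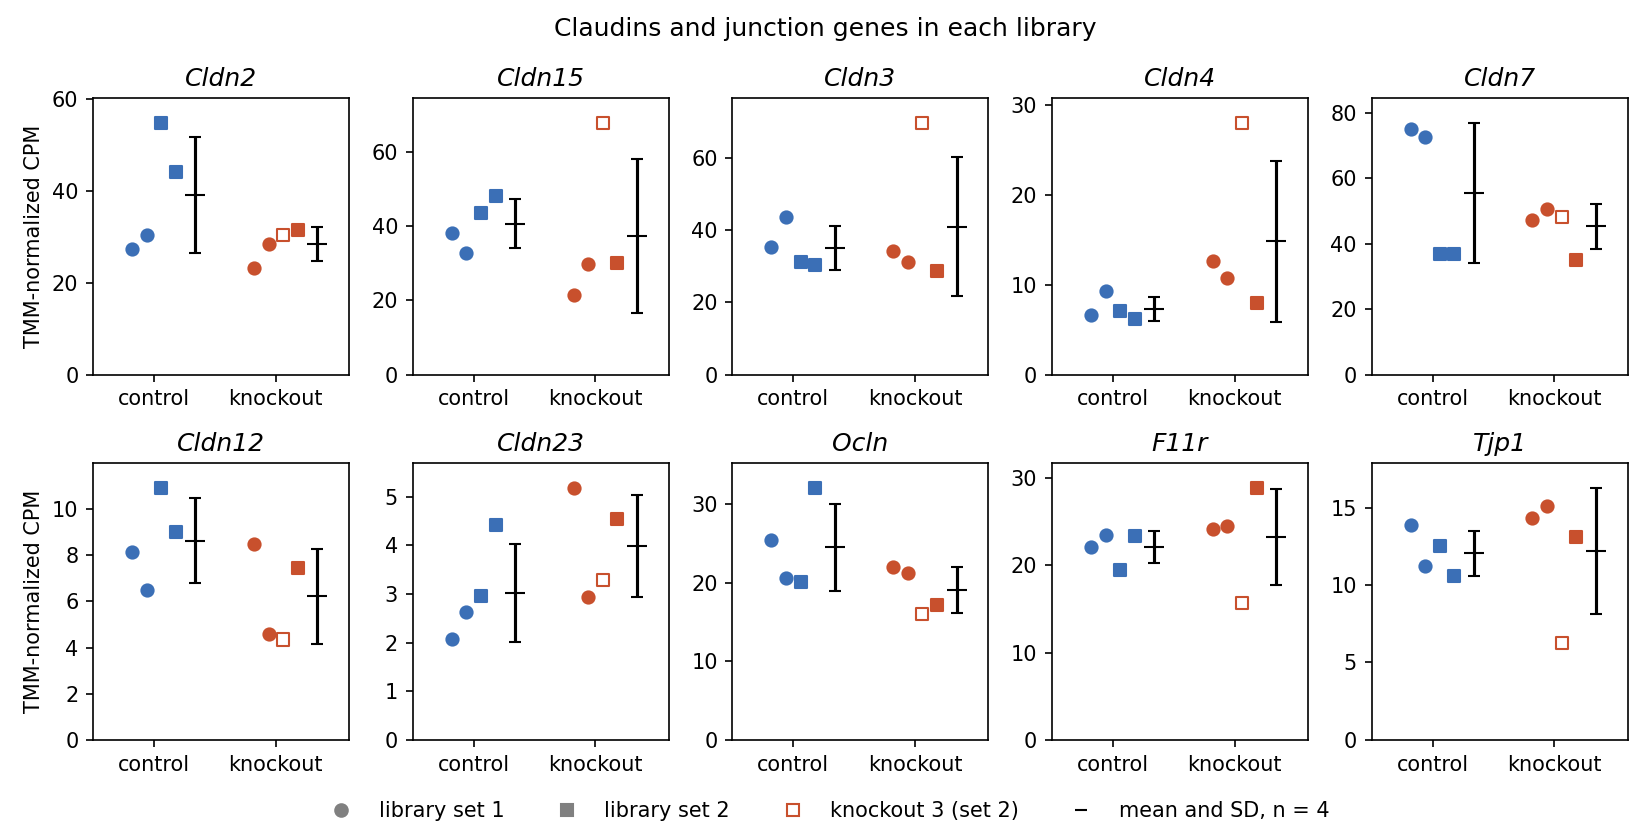
TMM-normalized CPM of each gene in the 4 controls (blue) and 4 knockouts (red), with mean and SD; circles are library set 1, squares set 2 and the open square knockout 3. Knockout 3 is highest for Cldn15, Cldn3 and Cldn4 and lowest for Cldn12, Ocln, F11r and Tjp1, and the controls of Cldn7 and Cldn2 split by library set.

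Knockout 3 held the highest or lowest value of the knockouts in 7 of the 10 genes, against 5, 3 and 5 for knockouts 1, 2 and 4 and 4 to 6 for the controls within their group. Relative to the mean of the other knockouts on the log2(CPM + 1) scale it was higher by 1.36 for Cldn4, 1.3 for Cldn15 and 1.13 for Cldn3. It was lower for Tjp1 (-1.07), F11r (-0.67), Cldn12 (-0.52), Ocln (-0.31) and Cldn23 (-0.26). Cldn2 and Cldn7 both stood at 0.14. In raw counts knockout 3 had 238 for Cldn4, 577 for Cldn15 and 592 for Cldn3. The other knockouts had 131 to 212, 362 to 520 and 471 to 578. The size of these differences depends on the TMM factors, which were 1.22 to 1.34 in the other knockouts and 0.632 in knockout 3. The 3 genes that were higher there have exons of 1.26 to 2.12 kb and a GC content of 54.1% to 62.8%, and the 4 with the most negative values have exons of 2.66 to 7.81 kb and a GC content of 42.0% to 50.1%. The other 3 genes did not follow this split. Cldn23 and Cldn7, with exons of 1.85 and 1.95 kb and a GC content of 54.8% and 57.0%, stood at -0.26 and 0.14, and Cldn2, with 3.33 kb and 48.8%, stood at 0.14. For all tested genes, differences of knockout 3 were taken from its group, not from the other knockouts as above. Their medians were -0.13 for exons under 2 kb, 0.02 for 2 to 4 kb and -0.07 for over 4 kb. A fit with an offset for exon length left Cldn4 at 0.98 on the log2 scale and a fit with an offset for GC content left it at 1.00. Neither offset changed the direction or the call of any of the 10 genes.

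Taking ratios within a library sets aside its scaling. The ratio of Cldn4 to Cldn3, both in CPM per kb, was 0.131, 0.148, 0.158 and 0.143 in the controls and 0.254, 0.241, 0.279 and 0.193 in the knockouts. Every knockout lay above every control, knockout 3 included, with means of 0.145 ± 0.0112 and 0.242 ± 0.0361 (SD, n = 4 each). As a share of the summed CPM per kb of the 7 claudins, Cldn4 made up 3.68%, 4.89%, 4.4% and 3.95% in the controls. In the knockouts it made up 8.63%, 7.26%, 11.1% and 6.0%, also without overlap. This share uses the same Cldn4 values as the ratio, and no background for such shares was computed. Of the 45 pairs of the 10 genes, 5 had ratios that did not overlap between the groups (11.1%, against 4.82% of all pairs of the 12792 tested genes with a count in every library), and Cldn4 was in 3 of them (with Cldn3, Cldn7 and Ocln). The other 2 pairs were Cldn2 and Cldn12, each with Cldn23. These ratios were picked after the counts had been seen and are given without a test.

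The summed level of the 7 claudins was 86.9 to 105.0 CPM per kb in the controls and 73.0 to 139.0 in the knockouts. Knockout 3 was at the top, and the other 3 knockouts (80.4, 81.8 and 73.0) lay below every control. How many of all genes separate the groups without knockout 3 was not counted, here or for Cldn15, F11r and Cxadr. The ratio of pore-forming (Cldn2 and Cldn15) to sealing claudins (Cldn3, Cldn4 and Cldn7) was 0.374 and 0.319 in the set 1 controls but 0.777 and 0.773 in the set 2 controls. The knockouts had 0.292 and 0.401 in set 1 and 0.43 and 0.524 in set 2. Set 2 was higher than set 1 in both groups. Within set 2 both knockouts lay below both controls, and within set 1 the groups overlapped.

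**Figure D4:**
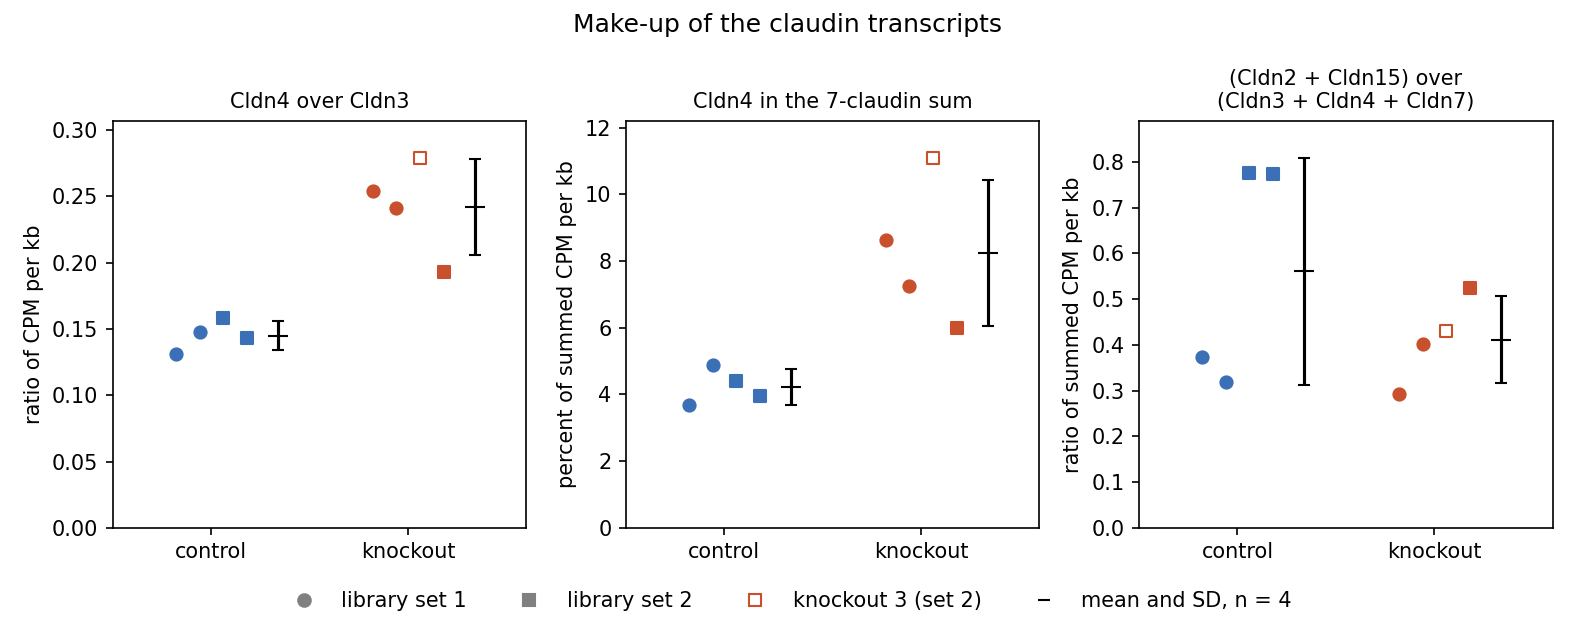
Ratio of Cldn4 to Cldn3, percent of Cldn4 in the sum of the 7 claudins, and ratio of pore-forming to sealing claudins, all from TMM-normalized CPM per kb, in each control (blue) and knockout (red) with mean and SD; circles are library set 1, squares set 2 and the open square knockout 3. The groups separate in the left and middle panels (0.131 to 0.158 against 0.193 to 0.279, and 3.68% to 4.89% against 6.0% to 11.1%), while the right panel separates the controls by library set.

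Of 18 other claudin genes in the table, 3 passed the filter (Cldn8, Cldn9 and Cldn19), and none of these was called or had an unadjusted edgeR p under 0.05. Cldn9, the highest of the 18 per kb, had 0 to 32 counts per library and a log2 fold change of -0.59 (edgeR adjusted p = 0.962). Cldn1, a sealing claudin of skin and liver, had 3, 6, 5 and 1 counts in the controls and 3, 0, 64 and 22 counts in the knockouts, so its signal sat in the knockouts of set 2. Cldn6, a claudin of embryonic epithelium, had counts in only 1 control (0, 0, 3 and 0) and 27, 45, 1 and 5 counts in the knockouts, with the high values in set 1. Both were below the filter. In the fit without a filter they were called, with edgeR adjusted p of 0.0285 for Cldn1 and 0.0109 for Cldn6, and each rested on 2 libraries.

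The proteins that work with claudins were represented by 43 genes, of which 38 were tested and none was called by edgeR. At an unadjusted p under 0.05, none was higher and 2 were lower, 5.26% of the list against 6.88% of all genes, and the median log2 fold change was -0.02. Ildr1, which recruits tricellulin to the corners where 3 cells meet, measured 11.6, 10.6, 11.6 and 9.31 CPM in the controls and 7.31, 7.18, 5.29 and 5.22 CPM in the knockouts. Its groups did not overlap, and the log2 fold change was -0.78 (SE 0.22, edgeR adjusted p = 0.39). Mylk, the myosin light chain kinase whose activity opens the junction, measured 4.26, 5.95, 4.13 and 3.0 CPM in the controls and 1.54, 2.47, 0.235 and 1.7 CPM in the knockouts. Here too the groups did not overlap (log2 fold change -1.5, SE 0.51, edgeR adjusted p = 0.505). Rab13, a GTPase of junction protein recycling named after its values were seen, was the only partner with all knockouts above all controls, at 2.0 to 3.29 CPM against 0.564 to 1.82 CPM (log2 fold change 0.86, edgeR adjusted p = 0.788). Groups that did not overlap were thus found in 3 of the 38 tested partners, and in 4.52% of all tested genes.

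By role, the 5 ZO and cingulin scaffolds all had log2 fold changes above 0, with a median of 0.19, and none had an unadjusted edgeR p under 0.05. The common sign was not stable: Cgn (cingulin), at 0.04, turned to -0.09 without knockout 1 and to -0.03 without control 3. Of the tricellular and MARVEL proteins, 4 of 5 were tested, and Marveld3, the highest per kb, was at 0.28 (SE 0.27). Of the JAM relatives, 3 of 5 were tested, and Cxadr, the coxsackie and adenovirus receptor, had 18.1 to 22.4 CPM in the controls and 20.0 to 32.4 CPM in the knockouts (log2 fold change 0.36, SE 0.19, edgeR adjusted p = 0.788). Without knockout 3 all its knockouts lay above all controls, at a log2 fold change of 0.47 (edgeR adjusted p = 0.283). Of 16 genes of the Par and Crumbs polarity complexes, 14 were tested, 9 of them with values below 0 and none at an unadjusted p under 0.05. Crb3, which anchors the Crumbs complex, was the highest per kb (0.23, SE 0.25).

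The genes most like Cldn3 in their profile over the 8 libraries, by the root mean square difference of centred log2(CPM + 1) among 4328 genes averaging 10 CPM or more, were Ctsd, Bsg, Timm17b, Dnm2 and Lmna, at 0.106 to 0.129 where the median gene stood at 0.473. For Cldn4 they were Ufd1, Babam2, Ppp2r2d, H2-T23 and Tcirg1, at 0.218 to 0.266 with a median of 0.664. No other member was among the 5 nearest of either gene. The profiles share their libraries and scaling, so the likeness is a description.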

How the data were processed

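Sorted Paneth cells were sequenced after full-length cDNA amplification in 4 controls and 4 knockouts, grouped by the genotype in the labels. The authors deposited raw counts per gene, made with featureCounts 1.6.3 on mm10 after bcl2fastq 2.19.1 (submitters' processing notes). Counts were used as deposited, and 92 spike-in rows (at most 11 counts per library) were left out. The table maps 53620 genes to a symbol. TMM-normalized CPM and CPM per kb of exon (exon lengths as deposited with the counts) were computed from these counts. In CPM, 3 counts equal 0.172 to 0.352. GC content was that of each gene's longest GENCODE M21 transcript. Groups were compared with edgeR 4.0.16 (quasi-likelihood test, robust, filterByExpr with min.count 10 and min.total.count 15, R 4.3.3), with Benjamini-Hochberg adjustment over the 13439 genes tested. Calls required an adjusted p not above 0.05 together with a change of 0.5 or more on the log2 scale. SE is the fold change divided by the square root of F, and intervals are 95%. Alternatives used other scalings and filters, DESeq2 1.42.0, limma 3.58.1 (voom with quality weights), library set as a block and each library left out. Offsets for exon length and GC content were added after the data were seen. The fit was tested on simulated data.

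The members, gene lists and tests were chosen with earlier results of these data known. Named genes were the 10 members, Kmt2a, other claudins and junction partners with an unadjusted p under 0.05, the 3 highest other claudins and the highest partner of each role per kb, and the 5 profiles nearest to Cldn3 and Cldn4. Of these, 1 gene is not reported here. The labels give animal numbers, and control 4 and knockout 4 share a number, which was not used. Replicates were taken as separate mice. Pairs of libraries differed by at least 12.13 times the sampling variance (chi-square per degree of freedom), so none was a copy. Amplified reads without molecular identifiers are not independent molecules, so a count of 3 as a floor covers counting error only.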

Additional observations from a re-analysis of the deposited data

Results flagged for a closer look

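In the knockouts, the highest Cldn3 value was that of knockout 3 (69.5 CPM against 28.6 to 34.3 CPM in the others). It lay apart from its nearest neighbour by 0.859 of the group's range, above Dixon's critical value for 4 samples. In raw counts knockout 3 had 592 and the others 471 to 578, so the gap depends on the TMM factors (0.632 against 1.22 to 1.34). In the controls, Cldn6 had 3 counts in control 3 and 0 in the other 3, a gap of 1.0 of the range at a level of 0.269 CPM. Of 40 groups examined, 2 passed this limit, and chance gives about 2.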

How the results depend on the processing

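Over 19 settings, 179 of 190 member fold changes kept their direction and their side of the threshold. Only the fit with no filter on low counts called a member (Cldn4, 0.99 on the log2 scale), with 290 genes called of 37039 tested. Small values changed sign: Tjp1 with upper-quartile factors (-0.00932) and when single libraries were left out (-0.0902 to 0.233), Cldn3 with limma-voom (-0.0497) and over the left-out libraries (-0.164 to 0.355), and over left-out libraries Cldn15 (-0.586 to 0.0643) and F11r (-0.0402 to 0.219). Members with an unadjusted p under 0.05 numbered 2 with upper-quartile factors (6.88% of all genes), with no filter (8.33%) and with library set as a block (7.92%), 3 with limma-voom (12.1%), and 1 to 2 over left-out libraries (5.45% to 11.3%). Genes called in all numbered 38 at an adjusted p of at most 0.1, 13 with at least 10 counts in every library, 138 with DESeq2, 101 with limma-voom, and 10 to 152 over left-out libraries (152 without knockout 3). The study's methods call the mice littermates, but the labels do not give the litters. The groups share only 1 animal number, so no paired analysis was possible. Effective library sizes ran from 8513090 (knockout 3) to 17415097 (knockout 2), and the fold of 2.01 in Cldn4 had an interval of 1.16 to 3.47.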
